A study of Mus musculus with 2 samples.

Results

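The genes of antigen presentation by major histocompatibility complex (MHC) class I and class II molecules were examined in the small intestine of IL-9 transgenic and wild-type mice. The set was a named list of 34 genes, 20 of the class I pathway and 14 of the class II pathway, out of 18194 genes with a probe set of their own name on the array. A probe set is a group of short probes that target one transcript. All probe sets whose annotated symbol field held a listed gene were taken, 74 in all out of 45101, of which 64 carried one symbol and 10 were shared with other genes. Of the 34 genes, 33 had a probe set, and H2-Q1 had none under that name and was not analysed here.

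The IL-9 transgenic animals and their wild-type counterparts were BALB/c mice aged 6 to 8 weeks. IL-9 is a cytokine of type 2 immunity that acts on mast cells, and the study concerned mast cells, intestinal permeability and hypersensitivity to oral antigen. RNA was pooled from 3 mice per group, and each pool went onto 1 Affymetrix mouse array, so no difference has a replicate check and no p-value is given. The labels name neither the promoter that drives the transgene nor the length of gut taken, and treatment is given as none for both pools. In whole tissue, fewer cells of a type and less RNA per cell cannot be told apart.

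Class I molecules display peptides from inside the cell to CD8 T cells. The proteasome cuts proteins to peptides, TAP carries the peptides into the endoplasmic reticulum, and tapasin helps to load them on a heavy chain paired with beta-2-microglobulin. Class II molecules display peptides from endosomes to CD4 T cells. The invariant chain fills their groove at first, cathepsin S trims it, and the DM molecule exchanges its remnant for peptide while the DO molecule restrains DM. Dendritic cells, macrophages and B cells carry class II, as do absorptive cells of the small intestine. The transactivators CIITA and NLRC5 act with the RFX complex on conserved promoter boxes in class II and class I genes.

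Letters found in those boxes are marked in the promoters below, of genes on which the results turn, from RefSeq, mouse assembly GRCm38.p6. The windows start 250 bases before the annotated gene start and hold 300 bases each. They lie at chr17:34305617-34305916 for H2-Eb1, chr17:34092129-34092428 for H2-Oa, chr17:34144999-34145298 for H2-DMb2 and chr17:35262844-35263143 for H2-D1, all on the plus strand. Those on the minus strand lie at chr17:34287774-34288073 for H2-Aa, chr17:34000298-34000597 for H2-K1 and chr17:36190102-36190401 for H2-T3. The reference is of C57BL/6J, a strain with another MHC haplotype than BALB/c, so single bases may differ in the mice studied. Capitals mark GATTGG, letters of the Y box, AGCAAC, letters of the X box core, and GGGATTC, inner letters of enhancer A of class I genes, each on either strand.
H2-Eb1: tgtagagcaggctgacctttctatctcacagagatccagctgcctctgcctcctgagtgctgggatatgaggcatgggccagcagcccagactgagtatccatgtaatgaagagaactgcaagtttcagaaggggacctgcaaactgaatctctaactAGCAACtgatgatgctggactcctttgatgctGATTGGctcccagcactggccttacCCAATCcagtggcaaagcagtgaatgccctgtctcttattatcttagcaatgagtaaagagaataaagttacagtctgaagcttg
H2-Aa: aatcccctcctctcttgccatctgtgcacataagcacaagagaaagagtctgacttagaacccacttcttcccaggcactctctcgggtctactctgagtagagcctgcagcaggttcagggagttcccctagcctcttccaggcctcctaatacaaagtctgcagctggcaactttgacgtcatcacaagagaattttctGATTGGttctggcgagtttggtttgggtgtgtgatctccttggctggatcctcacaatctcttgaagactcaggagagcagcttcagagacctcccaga
H2-Oa: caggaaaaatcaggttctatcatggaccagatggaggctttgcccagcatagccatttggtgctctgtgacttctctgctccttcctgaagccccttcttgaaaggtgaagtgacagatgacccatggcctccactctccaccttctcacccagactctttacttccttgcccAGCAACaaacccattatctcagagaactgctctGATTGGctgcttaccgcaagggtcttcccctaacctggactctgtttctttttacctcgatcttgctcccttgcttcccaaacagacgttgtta
H2-DMb2: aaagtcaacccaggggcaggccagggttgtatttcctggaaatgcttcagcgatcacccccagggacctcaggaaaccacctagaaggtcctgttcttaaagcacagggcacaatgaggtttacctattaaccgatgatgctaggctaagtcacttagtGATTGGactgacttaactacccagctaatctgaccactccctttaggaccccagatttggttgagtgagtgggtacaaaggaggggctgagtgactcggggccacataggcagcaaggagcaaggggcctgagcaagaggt
H2-K1: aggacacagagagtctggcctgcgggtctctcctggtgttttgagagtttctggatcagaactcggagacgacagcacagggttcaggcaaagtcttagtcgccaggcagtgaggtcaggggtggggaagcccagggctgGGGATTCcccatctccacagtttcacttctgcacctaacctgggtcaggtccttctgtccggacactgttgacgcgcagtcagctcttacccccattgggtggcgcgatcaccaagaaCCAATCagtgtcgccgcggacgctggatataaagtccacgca
H2-D1: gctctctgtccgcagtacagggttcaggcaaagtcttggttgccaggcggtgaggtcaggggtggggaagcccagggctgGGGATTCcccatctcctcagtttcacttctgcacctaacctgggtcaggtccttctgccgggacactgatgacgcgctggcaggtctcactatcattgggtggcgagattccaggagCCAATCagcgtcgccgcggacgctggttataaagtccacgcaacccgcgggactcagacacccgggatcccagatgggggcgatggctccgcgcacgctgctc
H2-T3: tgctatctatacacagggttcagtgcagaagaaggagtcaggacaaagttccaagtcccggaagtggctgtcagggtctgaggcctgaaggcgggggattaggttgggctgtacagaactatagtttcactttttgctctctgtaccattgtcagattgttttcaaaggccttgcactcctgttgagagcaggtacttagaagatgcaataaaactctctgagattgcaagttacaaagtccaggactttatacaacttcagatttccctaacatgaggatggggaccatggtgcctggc

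The RefSeq promoter table held 26 of the 34 listed genes, and the other 8 were H2-Ab1, Cd74, Ciita, Rfxap, H2-Q1, Cd1d1, Tap2 and Nlrc5. The letters GATTGG stood in 7 of the 10 class II promoters and in 6 of the 16 class I promoters, against 16.1% of all 32851 promoters of that table. In H2-Eb1 the letters AGCAAC began 92 bases and GATTGG 60 bases before the gene start, and in H2-Oa they began 77 and 44 bases before it. H2-Aa and H2-DMb2 held GATTGG at 49 and 91 bases before the start and no AGCAAC. In H2-K1 and H2-D1 GATTGG stood on the opposite strand only. It lay 53 bases before the start in H2-D1 and at -8, so past the start, in H2-K1. Whether a match is part of a Y box was not tested. The letters AGCAAC stood in 3 of the 10 class II and 3 of the 16 class I promoters, against 14.8% of all. The letters GGGATTC were found in 2 of the 16 class I promoters, H2-K1 and H2-D1, at 110 and 170 bases before the start, in 0 of the 10 class II promoters and in 3.08% of all. One window was searched per listed gene. H2-T3 held none of these letters in its window. The searched letters do not overlap one another in the promoters shown, and a match is a description of the sequence, not a measured binding site.

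The authors deposited intensities on a linear scale. The median over all probe sets was 78.7 in the transgenic pool against 78.3 in the wild-type pool. All differences below are log2(intensity + 1) of the transgenic pool minus that of the wild-type pool, and a fold is on that scale. A gene was represented by its own probe set with the highest mean, and passed the expression filter where the higher of its values reached an intensity of 78.5, the median of all values. Where a gene had more than 1 set past the filter (4965 genes), its sets scattered with an SD of 0.23 in the log2 difference. This is a scatter between different probe sets on the same 2 arrays. It is not an error between repeat arrays and holds no variation between animals. The 3′ to 5′ ratio of the actin control probe sets was 1.33 in the transgenic pool against 1.61 in the wild-type pool, and its part in the results was not tested. All 12 epithelial markers with a probe set passed the filter, and the lowest of them read 3710 in the transgenic pool against 4343 in the wild-type pool.

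The listed class I and class II genes held no difference of 2-fold between the transgenic and wild-type pools. Of the 34 genes, 28 passed the filter, 2 lay below it and 4 had no probe set of their own. Of the 28, 0 differed by 2-fold in either direction, against 0.809% of all 11862 genes past the filter. The 15 class I genes that passed had a median log2 difference of 0.0041, with 8 above 0 and 7 below, and the 13 class II genes had a median of -0.04, with 6 above 0 and 7 below. The median of all genes past the filter was 0.0083, with 51.4% above 0. The class I median exceeded the class II median by 0.04, and the sign of this gap turned under other settings. A log2 difference smaller than the SD between probe sets (0.2326) was found in 12 of 15 class I genes, in 11 of 13 class II genes and in 71.4% of all genes past the filter. Without a filter the class I median was 0.01 over 17 genes and the class II median stayed at -0.04 over the same 13.

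**Figure D1:**
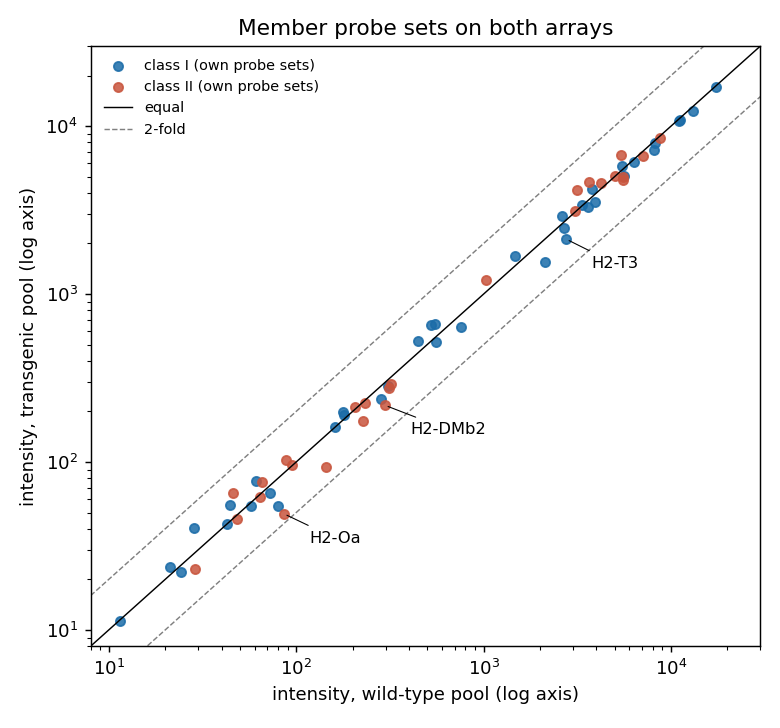
Intensity of each member probe set of its own name in the transgenic pool (vertical, log axis) against the wild-type pool (horizontal, log axis), with class I in blue and class II in red. All 64 points lie between the dashed 2-fold lines, and H2-Oa at 49.3 in the transgenic pool against 85.7 in the wild-type pool lies nearest to one.

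At a smaller log2 difference of 0.32, the genes past it among those that passed the filter were lower in the transgenic pool. They were 1 of 15 class I genes (H2-T3) and 2 of 13 class II genes (H2-DMb2 and H2-Oa), where 7.77% of all genes past the filter were lower and 7.97% higher by that size. Of the 28 genes, 1 (H2-Oa) was lower by 1.5-fold, where the share of all genes was 1.45%. Counts this small lie near the share of all genes. Without the filter, 2 class I genes (H2-Q10 and Nlrc5) were higher by 0.32 or more. The single direction therefore depends on the filter, which H2-Oa passed through the wild-type pool alone. It also depends on the probe set taken for each gene. Of the 50 own probe sets of listed genes past the filter, 2 were higher by that size and 7 were lower. The 2 higher sets were both of H2-Ab1, at 0.33 and 0.40. Among the shared sets, one of H2-DMb2 and H2-DMb1 lay at 0.44 and that of H2-T3 and H2-T18 at -0.61.

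The classical class I heavy chains and their light chain read almost the same in both pools. B2m, which encodes beta-2-microglobulin, read 17172 in the transgenic pool against 17408 in the wild-type pool, a difference of -0.02, and its other probe set differed by -0.08. H2-K1 read 7971 in the transgenic pool against 8163 in the wild-type pool, a difference of -0.03. Its 4 probe sets all lay below 0, down to -0.25. H2-D1 read 10938 in the transgenic pool against 11134 in the wild-type pool, also -0.03. Its 7 probe sets past the filter ran from -0.14 to 0.28, with 5 below 0 and 2 above. The sets of H2-K1 are all of the kind that can match related transcripts, and the only probe set of H2-D1 past the filter that is not of that kind is the one at 0.28 (666 in the transgenic pool against 550 in the wild-type pool). A probe set shared by H2-K1 and H2-D1 differed by -0.23 (2573 in the transgenic pool against 3022 in the wild-type pool), one shared by H2-Q5 and H2-K1 by 0.14 and one shared by H2-D1, H2-Q2 and Gm38417 by -0.17.

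H2-T3 was the class I gene with the lowest value in the transgenic pool relative to the wild-type pool. It encodes the thymus leukaemia antigen, a nonclassical class I molecule of mouse intestinal epithelium that binds CD8 alpha homodimers. Its representative probe set read 2127 in the transgenic pool against 2746 in the wild-type pool, a difference of -0.37. The other probe set of its own read 1545 in the transgenic pool against 2126 in the wild-type pool, a difference of -0.46, and one shared with H2-T18 read 814 in the transgenic pool against 1246 in the wild-type pool, a difference of -0.61. All 3 probe sets were therefore lower in the transgenic pool by more than 0.32 on the log2 scale. Only the set at -0.46 is not of the kind that can match related transcripts. Beside this, the epithelial markers had a median difference of -0.10 over 12 genes, none past a log2 difference of 0.32, with summed intensities of 157724 in the transgenic pool against 166692 in the wild-type pool, and their part in the H2-T3 value was not tested.

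The remaining nonclassical and monomorphic class I genes differed little. H2-T23, which encodes Qa-1, the ligand of the NKG2A receptor, has no probe set of its own. Of the pair it shares with H2-T-ps, the one past the filter read 4491 in the transgenic pool against 5107 in the wild-type pool, a difference of -0.19. H2-M3, which presents formylated peptides, differed by 0.07 (189 in the transgenic pool against 181 in the wild-type pool). Cd1d1, which presents lipids to NKT cells, differed by 0.17, and by -0.14 in its other set, which lay below the filter. Mr1, which presents vitamin B metabolites to MAIT cells, differed by 0.01. H2-Q10, a secreted molecule known from liver, lay below the filter in both pools. It read 40.4 in the transgenic pool against 28.6 in the wild-type pool, a difference of 0.48.

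**Figure D2:**
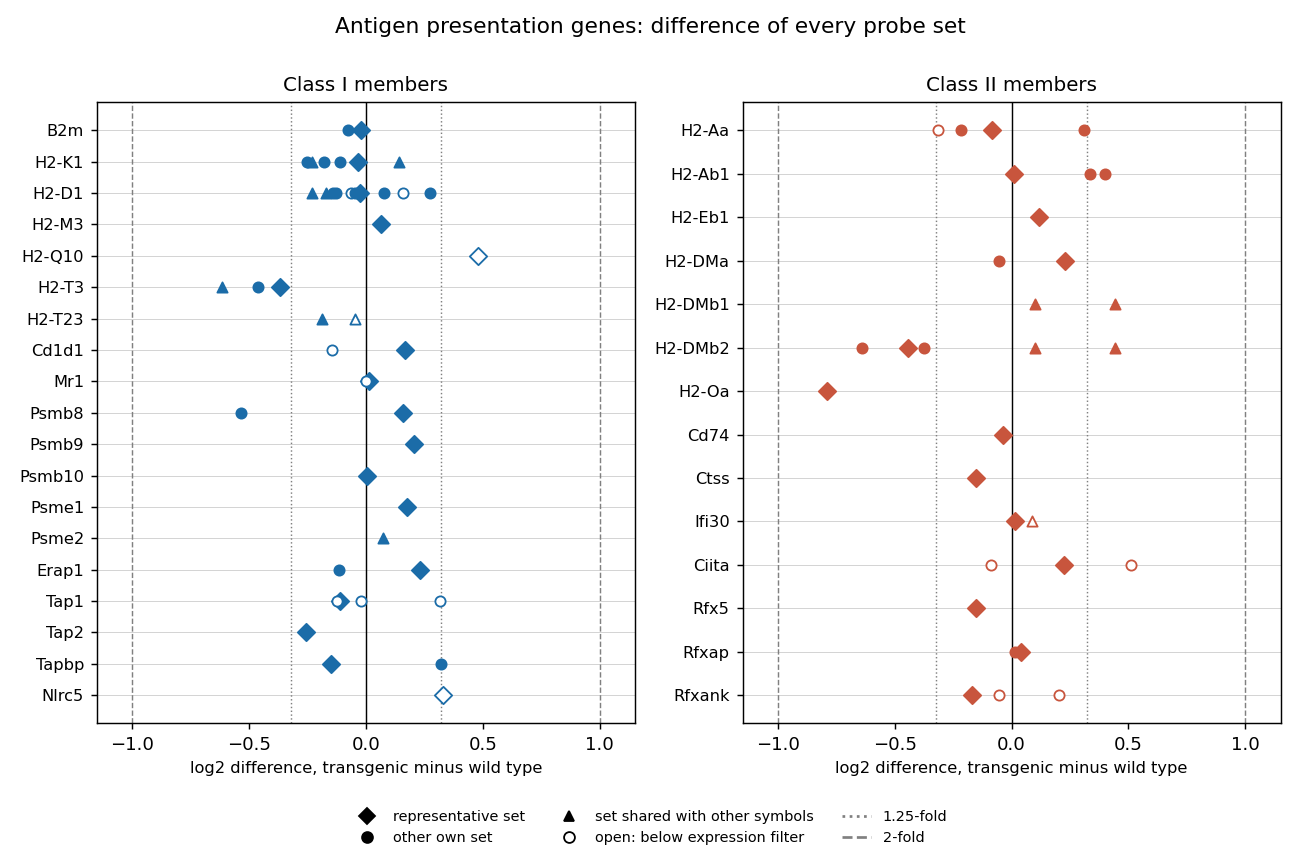
Log2 difference, transgenic minus wild type, of every probe set of the 33 genes that have one, class I on the left and class II on the right. Diamonds are the representative sets, circles other own sets, triangles sets shared with other genes, and open symbols lie below the filter. H2-T3 lies to the left of 0 in all 3 of its sets, while the 3 own sets of H2-DMb2 lie to the left and its shared sets to the right.

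Genes of peptide supply to class I lay at or above 0 and those of peptide loading below it in their representative sets. As means over all sets of a gene, Psmb8 stood at -0.19, Tap1 at 0.02 and Tapbp at 0.09, on the other side of 0, so neither group has a settled direction. The Tap1 mean takes in sets below the filter, and its 1 set past the filter lay at -0.11. Psmb8 and Psmb9, catalytic subunits of the immunoproteasome, differed by 0.16 (2918 in the transgenic pool against 2613 in the wild-type pool) and 0.21 (1695 in the transgenic pool against 1469 in the wild-type pool). The third such subunit, Psmb10, differed by 0.0041. The dimmer probe set of Psmb8 went the other way, at -0.53 (55.0 in the transgenic pool against 80.0 in the wild-type pool). Psme1, a subunit of the PA28 proteasome activator, differed by 0.17, while the set that its partner Psme2 shares with Psme2b differed by 0.07. Erap1, the aminopeptidase that trims peptides in the endoplasmic reticulum, differed by 0.23 in one probe set and by -0.11 in the other. All 5 of these genes with a set of their own lay above 0, with a median of 0.17 and none past a log2 difference of 0.32.

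The 3 loading genes lay below 0, with a median of -0.15. Tap1 and Tap2, which together form the peptide transporter, differed by -0.11 (516 in the transgenic pool against 558 in the wild-type pool) and -0.26 (633 in the transgenic pool against 756 in the wild-type pool). Tapbp, tapasin, differed by -0.15 in one probe set and by 0.32 in the other, so it has no direction here. Psmb9 and Tap1 are neighbours on opposite strands, and their values lay on different sides of 0. Nlrc5, the transactivator of class I genes, lay below the filter in both pools, at 76.8 in the transgenic pool against 60.9 in the wild-type pool, a difference of 0.33.

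The class II chains that present peptide did not lie apart between the pools in a single direction. H2-Aa and H2-Ab1 encode the alpha and beta chains of I-A, and H2-Eb1 the beta chain of I-E. H2-Aa read 6679 in the transgenic pool against 7075 in the wild-type pool in its representative set, a difference of -0.08. Its other sets past the filter lay at -0.22 and 0.31, on both sides of 0. H2-Ab1 read 5070 in the transgenic pool against 5032 in the wild-type pool, a difference of 0.01. The other sets of H2-Ab1 lay at 0.33 (4623 in the transgenic pool against 3667 in the wild-type pool) and 0.40 (4156 in the transgenic pool against 3150 in the wild-type pool), so its 3 sets all lay above 0 and its value depends on the set taken. H2-Eb1 read 4610 in the transgenic pool against 4251 in the wild-type pool, a difference of 0.12. H2-Ea, the alpha chain of I-E, is a pseudogene in the C57BL/6J reference and is intact in BALB/c. H2-Ea read 4339 in the transgenic pool against 3591 in the wild-type pool, a difference of 0.27.

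Cd74, the invariant chain that escorts class II molecules to endosomes, read 8545 in the transgenic pool against 8758 in the wild-type pool, a difference of -0.04. Ctss, cathepsin S, differed by -0.15 (4956 in the transgenic pool against 5512 in the wild-type pool). Ifi30, the thiol reductase GILT that opens disulfide bonds of antigens, differed by 0.01.

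The lower class II values lay among the DM and DO chains. H2-Oa, the alpha chain of DO, read 49.3 in the transgenic pool against 85.7 in the wild-type pool, a difference of -0.79 or 1.73-fold. It passed the filter through the wild-type pool alone and has 1 probe set. Its partner H2-Ob, which is not in the list and is known mainly from B cells, read 32.4 in the transgenic pool against 82.4 in the wild-type pool, a difference of -1.32, and also passed through the wild-type pool alone. A second probe set, shared by H2-Ob and Gm20506, read 73.9 in the transgenic pool against 79.1 in the wild-type pool, a difference of -0.10, so the H2-Ob value rests on 1 probe set.

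H2-DMb2, a beta chain of DM, was lower in the transgenic pool in all 3 probe sets of its own. They read 218, 176 and 92.8 in the transgenic pool against 297, 228 and 145 in the wild-type pool, in the same order, with differences of -0.44, -0.38 and -0.64. The probe sets it shares with H2-DMb1, the neighbouring gene for a DM beta chain, went the other way. They read 1062 and 408 in the transgenic pool and 782 and 381 in the wild-type pool, with differences of 0.44 and 0.10. H2-DMb1 has no probe set of its own, so its value cannot be told apart from that of H2-DMb2 in these sets. H2-DMa, the alpha chain of DM, differed by 0.23 (1209 in the transgenic pool against 1031 in the wild-type pool) in one set and by -0.05 in the other.

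The 4 regulators of class II differed by less than 0.32 in their representative sets. Ciita, the class II transactivator, read 103 in the transgenic pool against 88.0 in the wild-type pool, a difference of 0.22, and its other sets lay below the filter. Rfx5, Rfxank and Rfxap, the subunits of the RFX complex that both classes use, differed by -0.15, -0.17 and 0.04.

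Of the 34 listed genes, 19 lie on mouse chromosome 17, which holds the H-2 complex. In the gene order of the reference, the representative sets of several neighbours lay on different sides of 0. The signs of H2-DMa, H2-DMb2 and Psmb8 turn with the probe set taken. H2-Oa at -0.79 lies next to H2-DMa at 0.23, which is followed by H2-DMb2 at -0.44, then past H2-DMb1 come Psmb9 at 0.21, Tap1 at -0.11, Psmb8 at 0.16 and Tap2 at -0.26. H2-Ob at -1.32 lies between Tap2 and H2-Ab1 at 0.01.

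**Figure D3:**
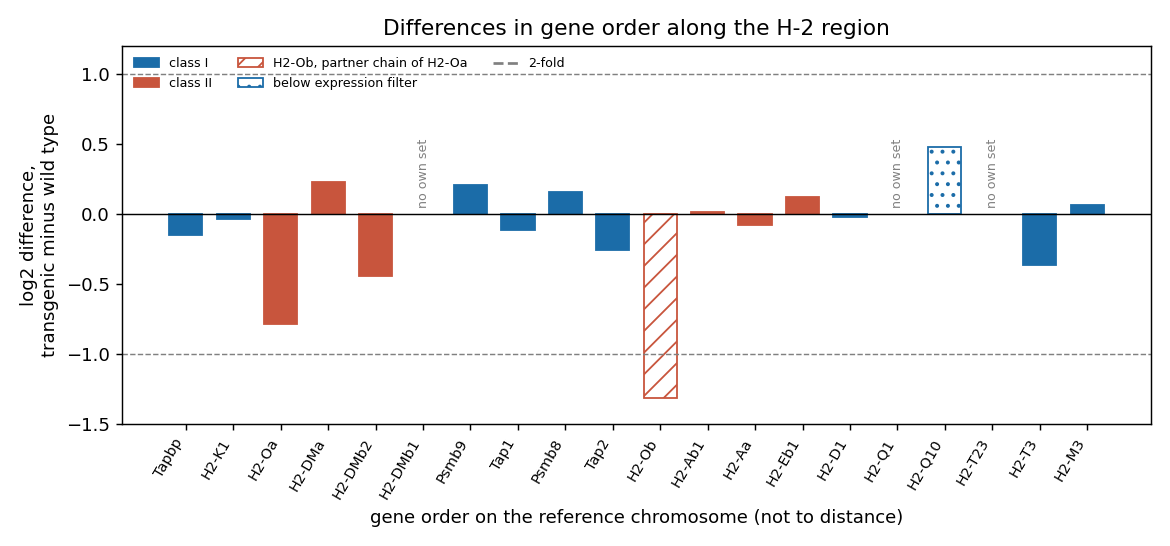
Log2 difference, transgenic minus wild type (vertical), of the chromosome 17 genes of the list and H2-Ob, in gene order and not to distance. Bars are representative probe sets, blue for class I and red for class II, with H2-Ob hatched and a gene below the filter dotted. H2-Ob reaches -1.32 and H2-Oa -0.79, while the I-A and I-E chains next to H2-Ob stay between -0.08 and 0.12.

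Related genes were read from lists of the pathway. In the list of the class I loading machinery and the standard proteasome, 3 of 27 genes past the filter were higher by 0.32 or more and 0 were lower, with a median of 0.12. Beside this and the counts of the lists that follow, 7.97% of all genes were higher and 7.77% lower by that size. The 3 were Psmb2 (0.54), Psma1 (0.37) and Psma4 (0.33), all subunits of the proteasome core, and the other probe set of Psma1 past the filter lay at -0.28. In the list of class I relatives, 1 of 7 was higher by that size and 0 were lower. This was Procr, the endothelial protein C receptor, at 0.49, with only its transgenic value above the filter, followed by Hfe, the iron regulator, at 0.30. Of 7 probe sets that class I relatives share with other symbols, 4 passed the filter and ran from -0.31 to 0.18, with 3 below 0.

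In the class II compartment list, 2 of 18 genes lay 0.32 or more above 0 and 1 lay as far below, with a median of 0.10. Cd9, a tetraspanin of the cell surface, differed by 0.73 (1071 in the transgenic pool against 645 in the wild-type pool), and Cst3, the cathepsin inhibitor cystatin C, by 0.43 (2662 in the transgenic pool against 1971 in the wild-type pool). The lower one was H2-Ob. In the costimulation list, 1 of 7 was lower and 0 were higher, namely Cd83, a surface protein of mature dendritic cells and B cells, at -0.47 (194 in the transgenic pool against 269 in the wild-type pool), followed by Icam1 at -0.30.

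Genes of interferon gamma signalling lay on both sides of 0. Of 23 past the filter, 4 were higher by 0.32 or more and 4 were lower, with a median of 0.06. Ifngr2, a chain of the interferon gamma receptor, differed by 0.82 (2092 in the transgenic pool against 1184 in the wild-type pool) in its representative set and by 0.07 in its other set. Socs1, an inhibitor of JAK signalling, differed by 0.69 (120 in the transgenic pool against 73.8 in the wild-type pool, the second below the filter), and the GTPase gene Irgm1 by 0.56. Ubd, a ubiquitin-like modifier, differed by -0.65 (171 in the transgenic pool against 268 in the wild-type pool). Irf1, a transcription factor upstream of several class I genes, differed by 0.09.

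The lower values of H2-Oa, H2-Ob and the own probe sets of H2-DMb2 stood beside lower B cell markers. DM as a whole was not lower. The sets H2-DMb2 shares with H2-DMb1 differed by 0.44 and 0.10, and those of H2-DMa by 0.23 and -0.05. Of 12 B cell markers listed, 11 had a probe set and 9 passed the filter, 3 of them through the wild-type pool alone. All 9 were lower by 0.32 or more on the log2 scale and 3 by 2-fold, with a median of -0.66, or -0.62 over the 11 without a filter. Of all 11862 genes past the filter, 7.77% were lower by 0.32 or more and 24 genes by 2-fold. Most of the 3 markers lower by 2-fold passed the filter through the wild-type pool alone. The summed intensity of the 11 was 1256 in the transgenic pool against 2117 in the wild-type pool, and no marker was at 0. The lowest value in the transgenic pool was 29.0 and the lowest in the wild-type pool was 60.2, from different markers. Among the 11, Ms4a1, the surface antigen CD20, read 74.9 in the transgenic pool against 251 in the wild-type pool. Cd79a, a chain of the B cell receptor, read 234 in the transgenic pool against 300.3 in the wild-type pool. Both were named after their values were seen. The part of B cells in the H2-Oa, H2-Ob and H2-DMb2 values was not tested.

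Markers of dendritic cells and macrophages, which also carry class II, and of T cells are given beside these. All 8 dendritic cell markers past the filter, 1 of which passed through the transgenic pool alone, lay above 0, with a median of 0.22 (0.14 over the 11 without a filter), and 3 were higher by 0.32 or more. Their summed intensity over the 11 with a probe set was 2027 in the transgenic pool against 1751 in the wild-type pool. Of 12 macrophage markers past the filter, 1 was higher and 2 were lower by 0.32 or more, with a median of 0.06. The summed intensity over the 13 with a probe set was 8187 in the transgenic pool against 8888 in the wild-type pool. Of the 7 T cell markers past the filter, 1 was higher by 0.32 or more and 0 were lower, with a median of -0.01. The part of dendritic cells and macrophages in the class II values was not tested.

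**Figure D4:**
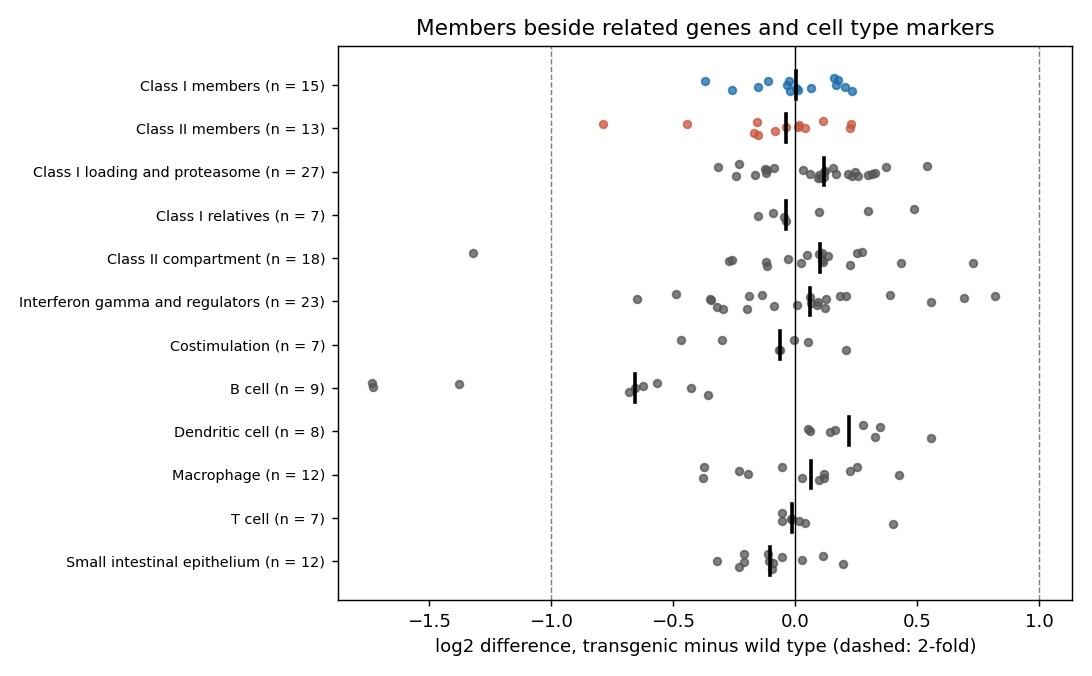
Log2 difference, transgenic minus wild type (horizontal), of the genes past the filter in the class I and class II sets, the related gene lists and the cell type marker lists, with 1 point per gene and a black bar at the median. All 9 B cell markers lie left of 0, with a median of -0.66, while the class I and class II medians lie at 0.0041 and -0.04.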

How the data were processed

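Total RNA of the small intestine, 10 µg per pool, was biotin-labelled for Affymetrix MOE430 2 arrays, per the labels' protocols. For each of 45101 probe sets, the deposited file gives an intensity on a linear scale. RMA, which corrects background, equalises array distributions and summarises probe sets, is the only tool listed, per the submitters' processing notes, and its version is not given in the sources used here. A shift shared by most genes could not be seen after it. Samples were grouped by the source in their labels. No detection calls were used, and the number of arrays limits the precision.

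Gene symbols came from a platform annotation table, in which 34958 probe sets carried 1 symbol, 932 several and 9211 none. The Entrez identifiers of all 30 listed genes with a set of their own matched entries of the RefSeq gene table, assembly GRCm38.p6. Python 3.11.15, pandas 2.3.3 and NumPy 2.4.6 computed log2(intensity + 1), the filter, differences and counts, tested on simulated data. Any listed gene could be named, and from each related list up to 4 genes past a log2 difference of 0.32, or the 2 largest where fewer passed, plus the partner chains H2-Ob and H2-Ea. Ms4a1, Cd79a and Irf1 were picked with their values in view. All genes, lists and thresholds were chosen with earlier results of these data known. Alternatives were the mean over probe sets, probe sets without a suffix, no filter, the 75th percentile as filter, a pseudocount of 16, quantile normalization, counting shared sets, and leaving out Rfx5, Rfxap, Rfxank, Cd1d1 and Mr1.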

Additional observations from a re-analysis of the deposited data

How the results depend on the processing

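For a list median, no measure of its own error can be had from 1 array per group, so the ranges are given as values. The class I median stayed between -0.02 and 0.07 and the class II median between -0.06 and 0.01 over the 8 alternatives run on them. Their difference ran from -0.0087 to 0.06 and changed sign when shared probe sets counted (-0.0087) or the RFX subunits, Cd1d1 and Mr1 were left out (-0.0073), so no order of the classes is given. Genes lower by 2-fold numbered 24, and 15 under the 75th percentile filter, where 7081 genes were counted. H2-DMb2 stood at -0.44 and reversed to 0.44 when the probe set shared with H2-DMb1 represented it. As the mean over probe sets Psmb8 was -0.19, Tapbp 0.09 and H2-Ab1 0.25, and H2-D1 was 0.28 without suffixed probe sets. H2-Oa stayed between -0.80 and -0.64 and H2-T3 between -0.46 and -0.37 wherever they were counted, and H2-Oa was not counted under the higher filter. No paired analysis was possible because each group has 1 array. Leaving out a replicate was not possible for the same reason. Dim probe sets near background understate folds.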
